A study of Rattus norvegicus with 6 samples.

Results

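The 4 mature miRNAs of the miR-132 and miR-212 hairpins were followed through 6 small RNA libraries of PC12 cells. They are the rows of the deposited table whose names carry the number of either hairpin: rno-miR-132-5p, rno-miR-132-3p, rno-miR-212-5p and rno-miR-212-3p, 4 of 1289 rows. The prefix rno stands for rat and is left out from here on. PC12 is a rat adrenal pheochromocytoma line, a tumour line of chromaffin origin that grows neurites under nerve growth factor. The labels put 3 libraries in a group called EC and 3 in a group called EN, spell out neither abbreviation, and give the same cell line and no further treatment, time or dose for both. The series title concerns exosomes of endothelial cells engineered with Netrin-1, an axon guidance protein, and nerve repair. Nothing in the labels says that the replicates were separate cultures, and all p-values refer to the spread among these libraries, which may be technical.

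MiR-132 and miR-212 are neighbouring hairpins of 1 primary transcript. Its promoter is a known target of CREB, the transcription factor that cyclic AMP and neurotrophin signalling activate, and both miRNAs are known to be induced by neuronal activity and by BDNF. Each hairpin is cut into a duplex of a 5p and a 3p arm, of which mostly 1 is kept by an Argonaute protein as the guide strand, and the bases at its 5′ end, the seed, pair with target mRNAs. In brain the 3p arm of miR-132 is known as the guide, and it is known for promoting neurite growth.

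The mature sequences show which arms could act on the same targets. They are RefSeq sequences of the GRCr8 assembly, 5′ to 3′, with the seed (bases 2 to 8) in capitals, and all 4 rows matched by name.
miR-132-3p: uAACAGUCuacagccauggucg
miR-212-3p: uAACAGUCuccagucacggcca
miR-132-5p: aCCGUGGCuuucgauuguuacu
miR-212-5p: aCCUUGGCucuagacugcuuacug
Both 3p arms carry the seed AACAGUC, and no other of the 693 mature rat miRNAs in the RefSeq table has it. From miR-132-3p to miR-212-3p, counted from the 5′ end, the differences are A10C, C14U, U17C, U20C and G22A, so 17 of 22 bases are identical and every difference lies outside the seed. The 5p arms differ within the seed, by G4U, and each seed is found in 1 mature miRNA of that table. In a gapped alignment 18 of the 22 bases of miR-132-5p are identical in miR-212-5p. Both 5p arms start with A, as do 25.8% of the 213 known 5p rows with a sequence, and both 3p arms start with U, as do 33.8% of 240 known 3p rows.

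In GRCr8 all 4 arms lie on the plus strand of chromosome 10. MiR-212-5p is at chr10:60521771-60521794 and miR-212-3p at chr10:60521811-60521832. MiR-132-5p follows at chr10:60522055-60522076 and miR-132-3p at chr10:60522091-60522112. There are 222 bases between the end of miR-212-3p and the start of miR-132-5p. In the RefSeq gene order the protein-coding gene Hic1 precedes Mir212, and the long non-coding RNA gene LOC120095261 follows Mir132. The miR-132 hairpin is shown because its arms are counted so unequally below. Its arms are in capitals, bases 23 to 44 and 59 to 80, with a loop of 14 bases between them (GRCr8, chr10:60522033-60522133, plus strand).
Mir132 hairpin: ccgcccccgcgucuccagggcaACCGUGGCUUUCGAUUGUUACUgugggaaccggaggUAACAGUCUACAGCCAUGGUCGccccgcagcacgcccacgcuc

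The libraries held between 4521694 and 6554639 miRNA counts. Levels below are CPM after TMM scaling, with counts scaled to the library's sum over the miRNA rows that passed the filter on low counts. The neuroendocrine markers fixed for PC12, 7 of 7 in the table, summed to 994 to 1159 CPM in EC and 1255 to 1513 CPM in EN. Nearly all of this sum was miR-7a-5p, whose mean went from 1055 (EC) to 1343 CPM (EN). No other marker of this list had a group mean above 13.9 CPM, that of miR-182 in EN. Means were lower in EN for miR-183-5p (5.58 to 1.73 CPM) and miR-96-5p (3.68 to 2.13 CPM) and higher for the others. The endothelial miR-126a arms, 2 of 2 in the table, summed to 1064 to 1144 CPM in EC and 1086 to 1229 CPM in EN. Their means moved in opposite directions, from 1049 CPM in EC to 1103 CPM in EN for miR-126a-3p and from 60.3 to 33.2 CPM for miR-126a-5p. Blood cell markers, 6 of 7 in the table, summed to 8.96 to 12.5 CPM in EC and 21.03 to 33.1 CPM in EN. Fibroblast or smooth muscle markers, 5 of 6, summed to 164 to 186 and 214 to 222 CPM, and oligodendrocyte or Schwann cell markers, 3 of 3, to 176 to 200.5 and 87.1 to 121.02 CPM. The last sum was mostly miR-338-3p, whose mean fell from 181 (EC) to 101 CPM (EN). The mean of miR-219a-5p went from 4.96 to 6.29 CPM and that of miR-219a-2-3p from 0.0532 to 0 CPM. Neuronal markers, 5 of 5, summed to 6185 to 6361 and 6223 to 6540 CPM, with means that moved in opposite directions. From EC to EN the mean of miR-9a-5p fell from 1442 to 1095 CPM, while that of miR-128-3p rose from 719 to 1162 CPM. The largest part was miR-129-5p, with means of 4132 and 4105 CPM. Near 0 were miR-124-3p (0.419 and 0.565 CPM) and miR-137-3p (0 and 0.123 CPM). Muscle markers, 3 of 3, summed to 1.76 to 30.3 and 1.75 to 2.41 CPM, and the liver marker miR-122-5p stood at 5.96 to 9.74 and 8.23 to 14.4 CPM. No marker of these lists was at 0 in every library, and the part of other cell types in the results was not tested. In bulk RNA, fewer cells of a type and less RNA per cell cannot be told apart. Between EN and EC 25 of 628 rows, or 3.98 percent, had an adjusted p under 0.05 (edgeR, quasi-likelihood, Benjamini-Hochberg over all tested rows). In 29.6 percent of rows the EN libraries did not overlap the EC libraries. Among the tested marker rows, 1 of 2 endothelial, 1 of 1 blood, 1 of 2 oligodendrocyte or Schwann cell and 1 of 3 neuronal rows passed. None of 5 neuroendocrine, 3 fibroblast or smooth muscle and 1 liver rows passed, and no muscle row was tested.

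The total of miR-212, its 2 arm levels added, was 8.12 ± 1.09 CPM in the EC libraries and 8.07 ± 2.18 CPM in the EN libraries (SD, n = 3), while the values of its arms differed in opposite directions. The 5p arm made up most counts of this hairpin in every EC library, and the 3p arm made up most in every EN library. MiR-132 was counted almost entirely as its 5p arm in both groups, and its total had a lower mean in EN without passing the test. None of the 3 rows that could be tested passed by itself. The balance of the miR-212 arms passed.

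MiR-132-5p was the most abundant of the 4 arms, at rank 222 of the 628 tested rows. Its counts were 378, 434 and 489 in EC replicates 1 to 3 and 264, 258 and 205 in EN replicates 1 to 3. As levels these were 58.4, 69.3 and 74.7 CPM in EC and 48.9, 59.0 and 44.9 CPM in EN. The highest EN library lay just above the lowest EC library, so the groups overlapped. Group means were 67.5 ± 8.31 CPM (EC) and 50.9 ± 7.26 CPM (EN), with SD over 3 libraries. The log2 fold change of -0.41 (SE 0.17) did not pass edgeR's test (adjusted p = 0.229), and the median over all tested rows was 0.02.

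MiR-132-3p, the arm known as the guide in brain, was close to the lower limit of what these libraries can measure. Its counts were 11, 8 and 9 in EC and 4, 18 and 24 in EN. The levels were 1.70, 1.28 and 1.37 CPM in EC and 0.740, 4.12 and 5.26 CPM in EN. EN replicate 1 was the lowest of the 6 libraries and EN replicates 2 and 3 were the highest. The row did not pass the filter on low counts, so the comparison of levels has no test over the filtered rows. With no filter its log2 fold change was 1.16 (SE 0.56), with an adjusted p of 0.397 by edgeR.

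MiR-212-5p stood at rank 484 of the tested rows. Its counts were 41, 27 and 39 in EC and 11, 8 and 14 in EN. The levels were 6.33, 4.31 and 5.96 CPM in EC and 2.04, 1.83 and 3.07 CPM in EN. Every EN library lay below every EC library. The log2 fold change was -1.25 (SE 0.32), which did not pass edgeR's test after Benjamini-Hochberg adjustment (adjusted p = 0.0710). It passed with library totals implied by the deposited RPM values in place of miRNA counts, at -1.58 (adjusted p = 0.0212), a scaling under which the median log2 fold change of the tested rows was -0.30 and not 0.02.

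MiR-212-3p, which shares its seed with miR-132-3p, had similar counts in the opposite order. They were 15, 16 and 19 in EC and 32, 18 and 33 in EN. The levels were 2.32, 2.55 and 2.90 CPM in EC and 5.92, 4.12 and 7.23 CPM in EN. Every EN library lay above every EC library. The log2 fold change was 1.15 (SE 0.30) and did not pass edgeR's test after Benjamini-Hochberg adjustment (adjusted p = 0.0776). Of the 3 tested arms, 2 had groups that did not overlap, 1 in each direction, beside 29.6 percent of all tested rows.

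**Figure D1:**
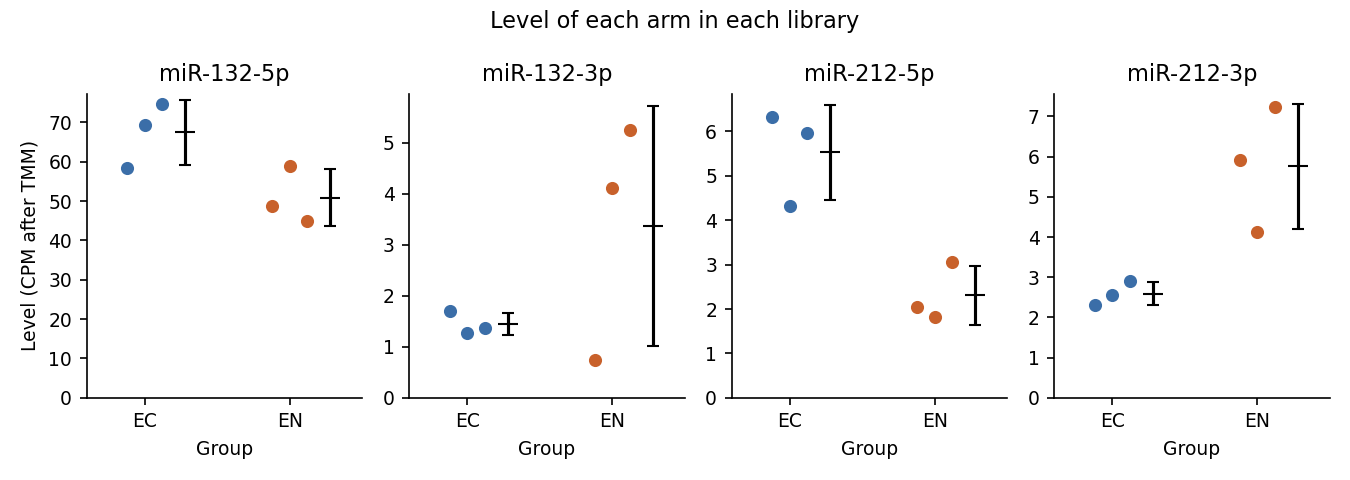
Level of each arm (vertical axes from 0, CPM after TMM scaling, a different scale in each panel) in the 3 EC and the 3 EN libraries (points), with the group mean and SD (black bars). The groups do not overlap for miR-212-5p, where EN is lower, or for miR-212-3p, where EN is higher, while miR-132-3p in EN spans 0.740 to 5.26 CPM.

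With its arm levels added, miR-212 stood at 8.65, 6.87 and 8.86 CPM in EC and 7.96, 5.94 and 10.3 CPM in EN. The groups overlapped from end to end, with the lowest and the highest library both in EN. Hairpin totals were tested in a fit of their own, with TMM factors computed from the totals, so levels differ slightly from the summed arms. There the log2 fold change of the miR-212 total was -0.07 (SE 0.27, adjusted p = 0.907 by edgeR). Its sign turned when 1 library was left out, to 0.0085 without EC replicate 1, 0.028 without EC replicate 3 and 0.12 without EN replicate 2. The arm levels of miR-132 added to 60.1, 70.6 and 76.1 CPM in EC and 49.6, 63.1 and 50.2 CPM in EN. EN replicate 2 lay above EC replicate 1, so the groups overlapped. With the factors of the fit on totals these libraries stood at 61.0 and 62.8 CPM and the groups did not overlap, as in 29.4 percent of the 503 hairpin totals tested, so whether they overlap depends on the scaling. The log2 fold change was -0.40 (SE 0.16) and did not pass edgeR's test (adjusted p = 0.202), where 3.58 percent of hairpin totals passed. With library totals implied by RPM the value was -0.68 and passed (adjusted p = 0.0281). MiRNA counts made up 30.9 to 32.6 percent of that implied total in EC and 25.0 to 26.9 percent in EN, and which of these totals is the better divisor was not tested.

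The 5p share of miR-212 counts shows the change of arms within each library, where it does not depend on library size. In EC replicate 1 it was 73.2% of 56 counts, with an exact Clopper-Pearson 95% interval of 59.7 to 84.2%. In EC replicate 2 it was 62.8% of 43 counts (46.7 to 77.0%) and in EC replicate 3 it was 67.2% of 58 counts (53.7 to 79.0%). EN replicate 1 had 25.6% of 43 counts (13.5 to 41.2%). EN replicate 2 had 30.8% of 26 counts (14.3 to 51.8%) and EN replicate 3 had 29.8% of 47 counts (17.3 to 44.9%). The 3 EC shares were all above the 3 EN shares. The intervals describe counting error only and treat each read as an independent molecule. Where reads are copies of the same molecule, they are too narrow. Those of EC replicate 2 and EN replicate 2 reach across equal use of the arms.

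**Figure D2:**
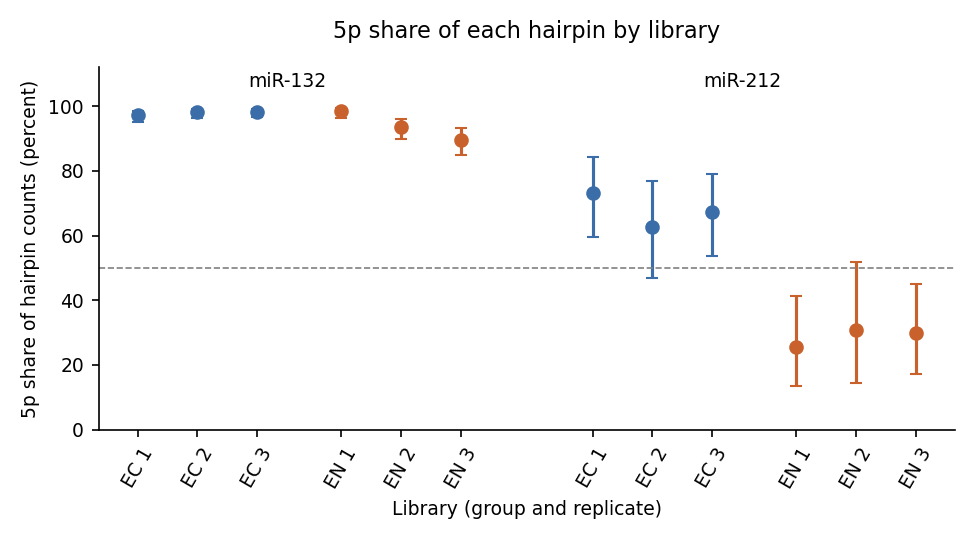
Share of each hairpin's counts that are the 5p arm (vertical axis, percent) in each library (horizontal axis), with exact 95% intervals for counting error and a dashed line at equal use. MiR-132 stays between 89.5 and 98.5%, and miR-212 lies at 62.8 to 73.2% in EC and 25.6 to 30.8% in EN.

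As ratios, 5p counts of miR-212 were 2.73, 1.69 and 2.05 times its 3p counts in EC and 0.344, 0.444 and 0.424 times in EN. On the scale of log2((5p + 1)/(3p + 1)) the mean was 1.04 ± 0.34 in EC and -1.24 ± 0.20 in EN (SD, n = 3). The difference of -2.28 (SE 0.23) passed limma's test with Benjamini-Hochberg adjustment over 107 hairpins (adjusted p = 0.00444), where 6 hairpins or 5.61 percent passed. It had the lowest adjusted p of those hairpins. The counting error of a single library's log2 ratio was 0.40 to 0.46 in EC and 0.46 to 0.61 in EN. The observed SD of the ratio without an added count was smaller, 0.35 and 0.20, so the SE of 0.23 and its p may be too small. Limma with voom weights, which depend on the counts, gave -2.34 (SE 0.34, adjusted p = 0.00567). With the same 107 hairpins, the difference passed limma's test without each of the 6 libraries in turn. Values ran from -2.44 to -2.10 and adjusted p from 0.00536 to 0.0452.

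Among the hairpins tested for arm use, miR-212 had the fewest counts, with a mean of 23.3 for the 5p and 22.2 for the 3p arm against the required 20 in each. Every EN library had under 20 counts of the 5p arm, and every EC library under 20 of the 3p arm. Each arm thus reached the minimum only through the group where it was higher, so entry into this test depended on the contrast tested. A minimum of 5 counts, which both arms exceeded in every library, gave an adjusted p of 0.0100 by limma. The median difference over all 107 was -0.02, with 56 hairpins at a lower ratio in EN, and in 29.9 percent the groups did not overlap. In 2 hairpins 1 arm was the larger in every EC library and the other arm in every EN library. These were miR-212 and a newly named hairpin, 1 of the predicted miRNAs that the authors numbered themselves. That newly named hairpin had the largest difference, -2.98 (SE 0.51, adjusted p = 0.0224 by limma). After it and miR-212 came let-7i at 2.22 (SE 0.34, adjusted p = 0.0176) and miR-195 at -1.63 (SE 0.67, adjusted p = 0.209), which did not pass limma's test.

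**Figure D3:**
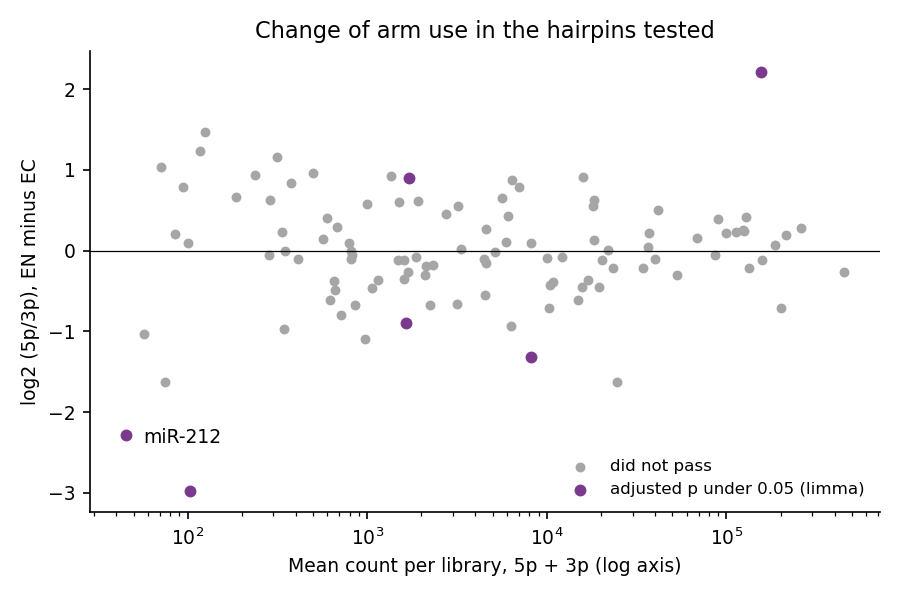
Difference of the log2 ratio of 5p to 3p counts, EN minus EC (vertical axis), against the mean count per library of both arms (horizontal log axis), for 107 hairpins (points). MiR-212 is the point farthest left, at -2.28, and the 6 hairpins that passed limma's test are in purple.

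The 5p share of miR-132 was 97.2, 98.2 and 98.2% in EC, of 389, 442 and 498 counts. It was 98.5, 93.5 and 89.5% in EN replicates 1 to 3, of 268, 276 and 229 counts. EN replicate 1 was the highest of the 6 libraries and EN replicates 2 and 3 were the lowest, and their exact 95% intervals, 89.9 to 96.1% and 84.8 to 93.2%, lie below that of EN replicate 1, 96.2 to 99.6%. The log2 ratio of 5p to 3p was 5.54 ± 0.38 in EC and 4.33 ± 1.53 in EN (SD, n = 3). With 12.3 counts on average the 3p arm was under the minimum for the test of arm use. With a minimum of 5 counts the difference was -1.22 (SE 0.71) and did not pass limma's test (adjusted p = 0.368), while miR-212 passed there (adjusted p = 0.0100). Leaving out 1 library moved the miR-132 difference to -1.99 without EN replicate 1 and to -0.65 without EN replicate 3. Over all libraries 96.5% of miR-132 counts were 5p, and 52 of 153 known hairpins with both arms listed and at least 20 counts on average had a higher 5p share.

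The balance between both hairpins was compared as a ratio within each library. MiR-212 made up 12.6, 8.87 and 10.4% of the cluster's counts in EC and 13.8, 8.61 and 17.0% in EN, so the groups overlapped. MiR-132-5p by itself made up 84.9, 89.5 and 87.9% in EC and 84.9, 85.4 and 74.3% in EN, lowest in EN replicate 3. Among the 5p arms, counts of miR-132 were 9.22, 16.1 and 12.5 times those of miR-212 in EC and 24.0, 32.3 and 14.6 times in EN. The difference of the log2 ratio of miR-212 to miR-132 was -0.87 for the 5p arms, for which the two-sided exact permutation test gave p = 0.2. It was 0.31 for hairpin totals (exact permutation p = 0.5), with values between 0.063 without EN replicate 3 and 0.62 without EN replicate 2. It was 0.31 for the 3p arms (exact permutation p = 0.9). With 3 against 3 libraries the smallest possible p is 0.1, and after Benjamini-Hochberg adjustment over 4 such tests the values were 0.667, 0.667 and 0.9.

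Among the 3p arms, counts of miR-212 were 1.36, 2.0 and 2.11 times those of miR-132 in EC and 8.0, 1.0 and 1.38 times in EN. EN replicate 1, with 32 counts of miR-212-3p and 4 of miR-132-3p, stood apart, and without it the difference of the log2 ratio turned from 0.31 to -0.61. The 4th of these tests asked whether the change of arm use differed between both hairpins. The log2 5p to 3p ratio of miR-212 minus that of miR-132 was -4.46 ± 0.71 in EC and -5.64 ± 1.72 in EN (SD, n = 3), a difference of -1.18 (two-sided exact permutation p = 0.4, adjusted p = 0.667). Leaving out 1 library gave differences between -1.84 without EN replicate 3 and -0.21 without EN replicate 1. Since that permutation test cannot go below 0.1, the difference was also fitted by limma on the log2((5p + 1)/(3p + 1)) scale as a row among hairpins averaging at least 5 counts in each arm, a test added after the data were seen. There it was -1.06 (SE 0.83) with an unadjusted p of 0.252 by limma, so miR-212 is not shown to differ from miR-132 in its change of arm use.

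The 3p arms with the shared seed summed to 26, 24 and 28 counts in EC and 36, 36 and 57 counts in EN. As levels these were 4.02, 3.83 and 4.28 CPM in EC and 6.66, 8.23 and 12.5 CPM in EN. Every EN library lay above every EC library, and no test was run on this sum, which was formed after its values were seen. The 5p arms, whose seeds differ, summed to 64.7, 73.6 and 80.6 CPM in EC and 50.9, 60.8 and 48.0 CPM in EN. Here too the groups did not overlap, with EN lower, and no test was run. Among single tested rows, 29.6 percent had no overlap. By themselves both arms of miR-212 had no overlap, while both arms of miR-132 overlapped. In CPM the 4 arms together stood at 68.7 to 84.9 in EC and 57.5 to 69.05 in EN, where EN replicate 2 lay above EC replicate 1.

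**Figure D4:**
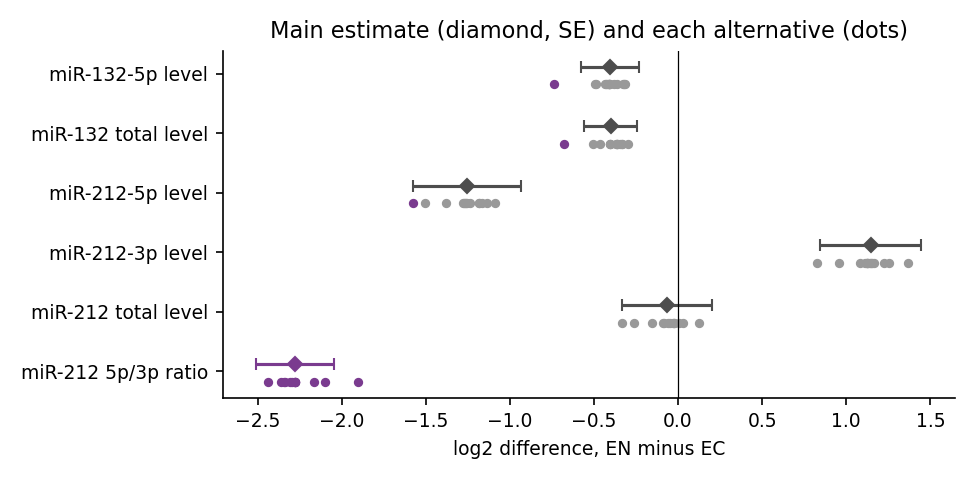
Log2 difference, EN minus EC (horizontal axis), of arm levels, hairpin totals and the balance of the miR-212 arms (5p over 3p), with the main estimate and its SE (diamonds, bars) and each alternative setting (dots), purple where the adjusted p was under 0.05. The miR-212 arm ratio passed in every alternative that tested it, from -2.44 to -1.91, and miR-212-3p in none, from 0.83 to 1.37.

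Other miRNAs tied by background knowledge to neuronal activity, light or neurotrophins were taken as a list of 19 names, of which 17 were in the table and 15 were tested. Of these, miR-222-3p, a miRNA that nerve growth factor is known to raise in PC12 cells, rose from 55273 ± 1797 to 77347 ± 3539 CPM (SD, n = 3), with an adjusted p of 0.0167 by edgeR. With library totals implied by RPM its log2 fold change was 0.15 in place of 0.48 and did not pass (adjusted p = 0.240), nor did it pass without EN replicate 2 or without EN replicate 3. MiR-188-5p fell from 210 ± 29.8 to 103 ± 24.4 CPM (adjusted p = 0.0489 by edgeR), a call that was lost without any 1 library except EC replicate 2. The remaining 13 did not pass, and 2 of 15 stand beside 3.98 percent of all tested rows. The list was chosen with earlier results of these data known, so its counts and its median are a description and test nothing. MiR-21-5p, at 44650 ± 4919 and 47365 ± 2416 CPM, and miR-204-5p, at 28338 ± 8667 and 32477 ± 2733 CPM, were the most abundant of them. The list's median log2 fold change was 0.15, beside 0.02 over all tested rows. MiR-124-3p, the typical miRNA of mature neurons, stood at 0.419 and 0.565 CPM and miR-134-5p, which is known to act in dendrites, at 0.723 and 1.25 CPM, both under the filter.

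The known miRNAs with the most similar pattern over the 6 libraries, by Pearson correlation of log2(CPM + 1), differed between the 4 arms. For miR-212-5p they were miR-484 (r = 0.985), miR-193b-3p (r = 0.964) and miR-24-2-5p (r = 0.963). Of these miR-24-2-5p fell, from 1883 ± 331 to 1026 ± 35.6 CPM (SD, n = 3, adjusted p = 0.0228 by edgeR), a call kept without EC replicate 2 or EN replicate 1 and lost without any of the other 4 libraries. For miR-212-3p they were miR-346 (r = 0.941), miR-423-3p (r = 0.932) and miR-425-5p (r = 0.931). For miR-132-5p they were miR-338-5p (r = 0.982), let-7g-3p (r = 0.957) and let-7d-3p (r = 0.953). For miR-132-3p they were miR-378b (r = 0.976), miR-193a-5p (r = 0.960) and miR-27a-5p (r = 0.959). These are the highest of 377 correlations per arm over 6 libraries that share their scaling, and they are given as a description. Between the members themselves r was 0.57 for the 5p arms, 0.43 for the 3p arms, -0.72 for the arms of miR-212 and -0.40 for the arms of miR-132. It was -0.85 for miR-132-5p with miR-212-3p and -0.30 for miR-132-3p with miR-212-5p.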

How the data were processed

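The authors deposited 1 table with whole-number read counts per mature miRNA and library, and beside each count an RPM value that equals it divided by 1 library total within 0.0015. The deposited group means, of RPM and of counts (treated like expected counts, since they need not be whole), were not used. HISAT2 2.0.5 and the build Rnor 6.0 are listed in the submitters' processing notes; counter, miRNA annotation and strand rule: not given in the sources used here. Of 1289 rows, 584 are known and 705 predicted miRNAs.

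Counts were fitted with edgeR 4.0.16 (filterByExpr, TMM, robust quasi-likelihood test, Benjamini-Hochberg over all rows tested, threshold 0.05) in R 4.3.3, by row and, with TMM factors of its own, with arms summed per hairpin. SE is the size of the log2 fold change over the root of the F statistic. Arm use was fitted with limma 3.58.1 on log2((5p + 1)/(3p + 1)) in hairpins averaging at least 20 counts in each arm. Ratios between hairpins had exact permutation tests (scipy 1.17.1). Fits were tested on simulated data. The members and lists were chosen with earlier results of these data known. Named miRNAs are the 4 members, the 3 known rows most correlated with each, and the 3 largest arm differences. From the activity list, the 3 most abundant and any called miRNAs are named. Of marker lists, summed levels and numbers of passing rows are given. Some single rows are shown for the neuroendocrine, endothelial, oligodendrocyte or Schwann cell, neuronal and liver lists. Alternatives were RLE, total counts, totals implied by RPM, other filters, DESeq2 1.42.0, limma-voom, other pseudocounts and minimums, voom weights, fewer rows, a replicate block and each library left out. Sequences are from RefSeq (GRCr8), a build other than Rnor 6.0.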

Additional observations from a re-analysis of the deposited data

How the results depend on the processing

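The change of miR-212 arm use kept its direction and passed in all 13 alternatives that kept the hairpin, with adjusted p up to 0.0452. A minimum mean of 100 counts removed it. The fits without 1 library kept the 107 hairpins of the full set and did not apply the minimum of 20 counts anew, so miR-212 need not meet it in each. MiR-212-3p passed in none of 15. MiR-212-5p at -1.58, miR-132-5p at -0.74 and the miR-132 total at -0.68 newly passed with library totals implied by RPM and in no other setting; a minimum of 10 CPM removed both miR-212 arms, and DESeq2 gave miR-212-5p no adjusted p. Without 1 library, the values were -1.50 to -1.09 for miR-212-5p, 0.95 to 1.37 for miR-212-3p, -0.49 to -0.31 for miR-132-5p and -0.26 to 0.12 for the miR-212 total, which turned to 0.0085 without EC replicate 1, 0.028 without EC replicate 3 and 0.12 without EN replicate 2. MiR-132-3p ranged from 0.70 to 1.68 without 1 library, and its adjusted p was 0.0510 at the latter, without EN replicate 1. The difference of the log2 ratio of miR-212 to miR-132 ranged from -0.61 to 0.89 for the 3p arms and from -1.18 to -0.61 for the 5p arms.

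Calls over all rows were 25, and 101 with library totals implied by RPM, 44 without a filter, 88 with DESeq2 and 2 to 39 without 1 library (2 without EN replicate 3, 39 without EC replicate 2). Hairpin total calls were 18, and 77, 44, 74 and 0 to 28 in the same order. Arm use calls were 6, and 1 to 15 without 1 library. A replicate block on the library number gave 2 rows, 3 hairpin totals and 5 hairpins of changed arm use, among them miR-212 (adjusted p = 0.0143); libraries of the same number had correlated deviations of 0.0765, -0.0523 and 0.00701 and are not taken as pairs. With library totals implied by RPM, miR-204-5p became -0.13, miR-21-5p -0.24, miR-27a-5p -0.13 and miR-425-5p -0.0090, and miR-204-5p ranged from -0.0127 to 0.37 without 1 library, lowest without EC replicate 2. MiR-222-3p passed in 11 of 15 alternatives, miR-24-2-5p in 11 of 16 and miR-188-5p in 10 of 16. Apart from the divisor itself, the cause was not tested. Depth limits all 4 arms but miR-132-5p, which have 4 to 41 counts in a library.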
